A study of Ichthyophis bannanicus with 29 samples.

Results

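Among the 53113 assembled genes measured in 10 tissues of the caecilian Ichthyophis bannanicus, a limbless burrowing amphibian, 46 were restricted to the spleen. They were chosen by their level. Each had at least 20 TPM (a length-corrected share of transcripts that sums to 1000000 in each library) in every spleen library, and its median in each of the other 9 tissues was below 5% of its spleen mean. The tissues were spleen, blood, heart, kidney, liver, lung, skin, stomach and testis, with 3 libraries each, and ovary, with 2 libraries (replicates 1 and 3), which gave 29 libraries in all. The labels give the tissue only, with no sex, age, animal or treatment. Whether a tissue's libraries are from different animals is not stated, so p-values measure the spread between these libraries, which may be technical.

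In amphibians the spleen filters the blood, removes worn red cells and holds lymphocytes and macrophages that meet antigen carried by the blood. Amphibians lack the lymph nodes of mammals, and the spleen is a main site of their antibody response. Genes that one tissue uses and others do not are often those of its own cell types. Restricted here means relative to the other 9 tissues sampled, since organs outside these 10 were not measured. Which cells carried these genes cannot be told from their levels. The genes here carry assembly identifiers without names, so no function can be given to any of them. For the same reason the label spleen could not be checked against markers of spleen or blood cells. It rests on the sample labels alone, since the genes were chosen by their levels in the libraries so labelled. An assembled gene may be a fragment of a gene or may join near-identical copies. In tissue RNA, fewer cells of a type and less RNA per cell cannot be told apart.

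Sequencing depth cannot be read from TPM, so it is unknown for every library, and counting error could not be stated. The number of genes at 1 TPM or more ranged over 18410 to 36057 per library, and spleen replicate 1 was the lowest. Liver replicate 2 stood apart, because it carried the spleen-restricted genes at a median of 8.12% of their spleen mean (13.9% without spleen replicate 3), and results that rest on it are given with and without it. Kidney replicate 1 read the 181 genes that the same rule finds for ovary at a median of 42.6% of their ovary mean, and testis replicate 1 read the 376 kidney genes at 7.42% of their kidney mean. The spleen-restricted genes summed to only 34.2 TPM in kidney replicate 1 and 42.8 TPM in testis replicate 1. The kidney value was the lowest of the 3 kidney libraries, and the testis value lay between the other testis libraries.

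The selected genes held a large share of the TPM in the spleen libraries. Their summed level was 109683 TPM in spleen replicate 1, 118031 TPM in replicate 2 and 268207 TPM in replicate 3, which is 10.97%, 11.8% and 26.8% of all TPM. Replicate 3 therefore held more than both others, and the mean was 16.5% ± 8.92 (SD, n = 3). By the same rule, stomach had 89 genes with 36.2% ± 7.98 of TPM, skin 234 genes with 28.2% ± 3.42 and liver 182 genes with 21.9% ± 4.29 (SD, n = 3 each). The spleen had fewer genes than these 3 tissues, and its genes had a higher median level, 1374 TPM, against 318 TPM in stomach, 184 TPM in skin and 246 TPM in liver. These values were fixed in part by the rule and are a description. Lung had still fewer genes, 26, with a higher median level of 1795 TPM. Blood had only 2 genes under the rule, heart 56 and testis 88.

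**Figure D1:**
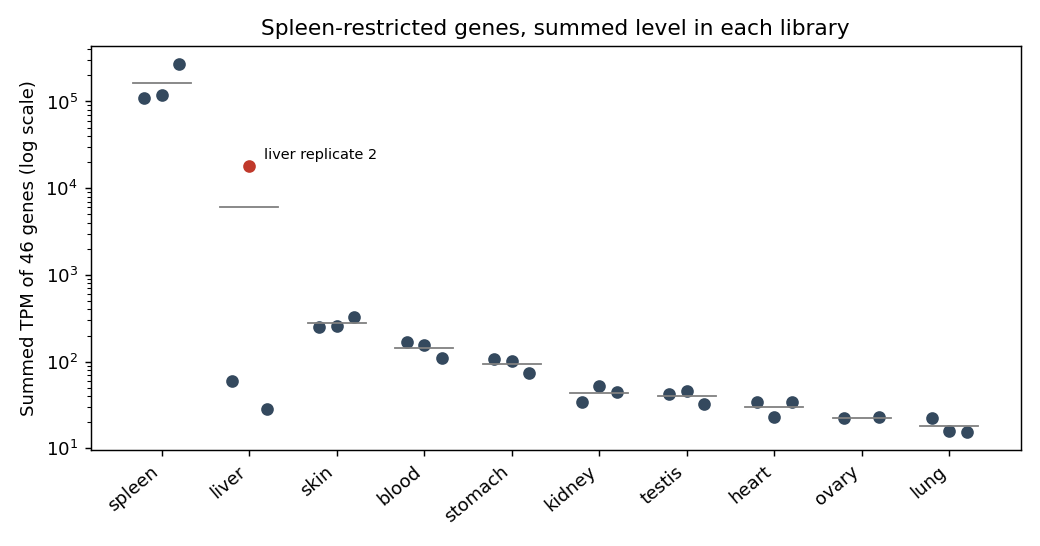
Summed TPM of the 46 spleen-restricted genes in each library (log scale, TPM), by tissue, with a point per library and a grey line at the tissue mean. The 3 spleen libraries lie at 109683 TPM or more, liver replicate 2 lies at 17941 TPM, and the other 25 libraries lie at 328 TPM or less.

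Spleen means covered a wide range, with 6 genes at 10000 TPM or more, 26 at 1000 TPM or more, 14 at 100 to 1000 TPM and 6 under 100 TPM. The highest was TRINITY_DN5667_c0_g1, with 18423, 15823 and 38628 TPM in spleen replicates 1, 2 and 3. In liver it had 3.66, 2774 and 5.69 TPM, in skin 28.3, 28.6 and 35.2 TPM and in blood 23.8, 21.8 and 15.2 TPM. The 17 libraries of the 6 remaining tissues lay at 0.652 to 7.37 TPM, with a median of 2.38 TPM. The spleen libraries were far above every other library of this gene, and liver replicate 2 was the highest of the others. TRINITY_DN6820_c0_g1 was second, with 16714, 18443 and 35309 TPM in spleen, 2.49, 3583 and 1.20 TPM in liver, 23.9, 27.1 and 35.8 TPM in skin and 22.5, 19.1 and 12.6 TPM in blood. The lowest value in the 17 remaining libraries was 0 TPM, the median 0.372 TPM and the highest 10.5 TPM. In both genes liver replicate 2 came next to the spleen, followed by skin and then blood, and the order of the remaining tissues differed.

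The lowest members were TRINITY_DN11096_c0_g1, with 25.2, 24.2 and 43.3 TPM in spleen replicates 1, 2 and 3, and TRINITY_DN30570_c0_g1, with 34.4, 31.1 and 76.9 TPM. The first was listed at 0 in every liver and blood library and was at most 0.0953 TPM elsewhere. The second had 3.69 TPM in liver replicate 2 and at most 0.281 TPM elsewhere. Few genes carried most of the sum. The top 3 held 44.1% of it in spleen replicate 1, 40.9% in replicate 2 and 39.8% in replicate 3, and 18, 19 and 20 genes held 90% of it. Of the 10 most abundant genes of the library, 2 were among these genes in replicate 1, 5 in replicate 2 and 7 in replicate 3. Of the 100 most abundant, 13, 21 and 31 were.

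Genes just inside and just outside the limits show how sharp the choice was. The lowest spleen library was 24.2 TPM for both TRINITY_DN161328_c0_g1 and TRINITY_DN11096_c0_g1, which were the nearest inside. Just outside, TRINITY_DN5099_c3_g2 had 19.7 TPM and TRINITY_DN26893_c0_g1 had 18.04 TPM in their lowest spleen library. For the limit of 5%, TRINITY_DN14521_c0_g1 was inside with a liver median at 4.71% of its spleen mean, and TRINITY_DN81709_c0_g1 with a stomach median at 3.25%. TRINITY_DN32282_c0_g1, with a testis median at 5.07%, and TRINITY_DN14008_c1_g1, with a liver median at 5.20%, were outside. The last had 13599, 3084 and 1268 TPM in spleen replicates 1, 2 and 3.

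**Figure D2:**
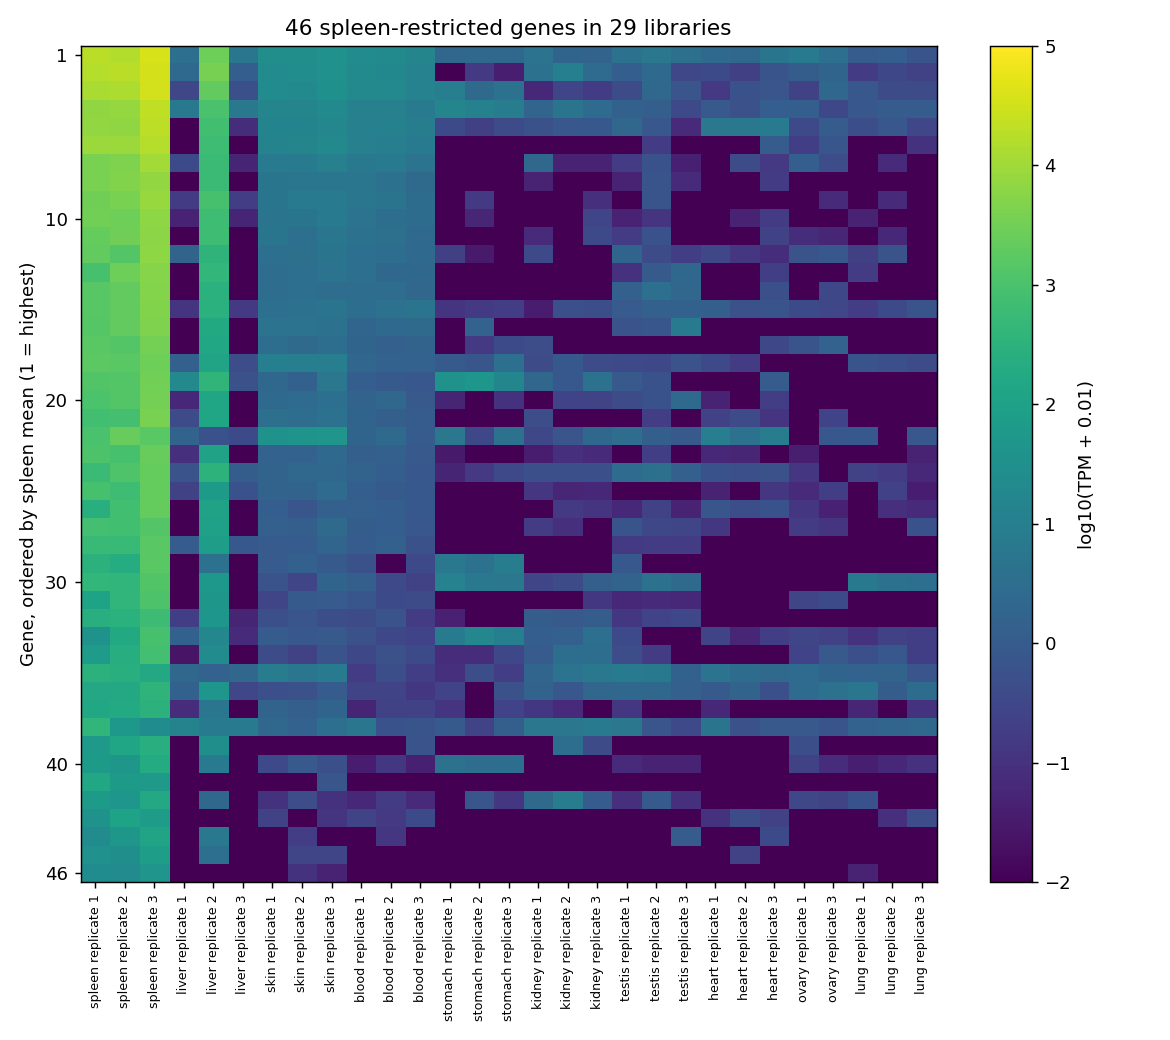
Level of the 46 spleen-restricted genes (log10 of TPM + 0.01) in the 29 libraries, with genes down the page in order of spleen mean and libraries across. The spleen columns are high throughout, liver replicate 2 follows them at a lower level, and the skin and blood columns are raised for the genes with the highest spleen means.

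The 3 spleen libraries differed in level but kept much of the order of the genes. Across the 46 genes, Pearson's r of log2 TPM was 0.944 between replicates 1 and 2, 0.891 between 1 and 3 and 0.960 between 2 and 3. Each point is a gene of the same pair of libraries, so genes are not independent replicates. Replicate 3 was the highest spleen library for 41 of the 46 genes (89.1%), replicate 1 for 3 and replicate 2 for 2. Among the 2040 other genes at 20 TPM or more in every spleen library, replicate 3 was the highest for 5.15%, replicate 1 for 35.6% and replicate 2 for 59.2%. The ratio of replicate 3 to replicate 1 had a median of 2.64 in the spleen-restricted genes and 0.911 in the other 2040. For replicate 3 to replicate 2 the medians were 2.38 and 0.673, and for replicate 2 to replicate 1 they were 1.09 and 1.30. With a size factor per library in place of the TPM total, replicate 3 was the highest for 40 genes. The median ratio of replicate 3 to replicate 1 was then 1.56, and the order of replicates 1 and 2 turned, with sums of 234210, 101354 and 338974 for replicates 1, 2 and 3. The count and ratio were not computed for the other 2040 genes after rescaling, so these rescaled values have no background. TPM has a fixed total, so the larger share of the spleen-restricted genes in replicate 3 leaves less for the other 2040. The rule set a minimum in each spleen library and a limit relative to the spleen mean, which a high spleen library raises. These ratios are therefore not free of the rule. They are given without a test, since each library is 1 sample.

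The highest spleen library was 1.75 to 22.8 times the lowest, with a median of 2.89, against 2.14 in the other 2040 genes. The ratio was under 2 for 7 genes, 2 to 4 for 28 and 4 or more for 11. It was largest in TRINITY_DN161630_c0_g1, with 39.2, 175 and 894 TPM in spleen replicates 1, 2 and 3. TRINITY_DN14521_c0_g1 ran the other way, with 402, 52.4 and 25.99 TPM. Replicate 3 held 80.7% of the summed spleen TPM of the first, and replicate 1 held 83.7% of that of the second. TRINITY_DN48664_c0_g1, with 312, 217 and 1622 TPM, had 75.4% in replicate 3. The smallest ratios were those of TRINITY_DN19979_c0_g2, with 1751, 1654 and 2892 TPM, and TRINITY_DN11792_c0_g1, with 814, 745 and 1332 TPM. In both, replicate 3 was the highest, and replicates 1 and 2 were close.

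The 5 genes not highest in replicate 3 were low in liver replicate 2. TRINITY_DN57371_c0_g1 had 153, 64.7 and 59.9 TPM in spleen replicates 1, 2 and 3, and TRINITY_DN78477_c0_g4 had 40.3, 118 and 67.9 TPM. Both were listed at 0 in liver replicate 2. TRINITY_DN15338_c0_g1 had 972, 2364 and 1664 TPM in spleen and 0.567 TPM in liver replicate 2. TRINITY_DN13891_c0_g1 had 324, 242 and 165 TPM in spleen and 1.55 TPM in liver replicate 2. TRINITY_DN14521_c0_g1 was the only one of the 5 at 1% or more of its spleen mean in liver replicate 2. There it had 7.002 TPM, beside 13.2 and 7.54 TPM in liver replicates 1 and 3. None of these 5 was above both other liver libraries in liver replicate 2. Of the 41 genes highest in replicate 3, TRINITY_DN11096_c0_g1, listed at 0 in every liver library, was not above them either. TRINITY_DN48664_c0_g1, also highest in replicate 3, was above them but at 0.596% of its spleen mean.

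**Figure D3:**
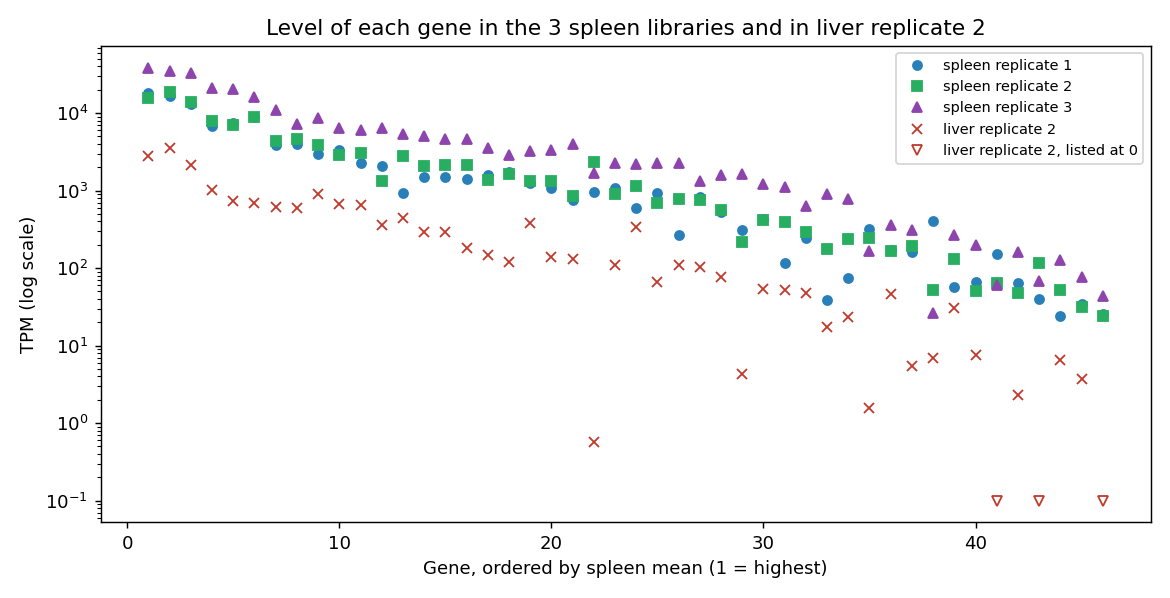
Level of each spleen-restricted gene (TPM, log scale) in the 3 spleen libraries and in liver replicate 2, with genes across in order of spleen mean. Spleen replicate 3 is the highest point for 41 of 46 genes, and the crosses of liver replicate 2 run below the spleen libraries, with 3 genes listed at 0.

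Liver replicate 2 was the only library outside the spleen with a high level of these genes as a set. Their sum there was 17941 TPM, against 59.4 TPM in liver replicate 1 and 28.1 TPM in liver replicate 3. It was 16.4%, 15.2% and 6.69% of the sums in spleen replicates 1, 2 and 3. Liver replicate 2 was above both other liver libraries for 40 of the 46 genes and was the highest library outside the spleen for 37. The level was 8.12% of the spleen mean at the median gene, with quartiles of 5.81% and 11.1% and a range of 0 to 25.4%, and the median was 13.9% of the spleen mean without spleen replicate 3. At 1% or more were 40 genes, below 1% were 6, and 33 reached 20 TPM. Spearman's rho with the gene levels in spleen was 0.943 for spleen replicate 3, 0.903 for replicate 2 and 0.890 for replicate 1 (46 genes, which share these libraries). Of the 41 genes highest in spleen replicate 3, 39 were at 1% or more in liver replicate 2. Of the 5 others, 1 was.

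The highest levels in liver replicate 2 were those of TRINITY_DN6820_c0_g1, 3583 TPM, and TRINITY_DN5667_c0_g1, 2774 TPM. As a share of the spleen mean the highest were TRINITY_DN1276_c2_g1 and TRINITY_DN5072_c0_g1. TRINITY_DN1276_c2_g1 had 592, 1155 and 2216 TPM in spleen replicates 1, 2 and 3 and 0.625, 335 and 1.15 TPM in liver replicates 1, 2 and 3, so that liver replicate 2 was at 25.4% of the spleen mean. TRINITY_DN5072_c0_g1 had 170, 167 and 365 TPM in spleen and 1.46, 46.5 and 0.305 TPM in liver, which put liver replicate 2 at 19.9%. In both genes liver replicates 1 and 3 were near the level of the other tissues. The 182 liver-restricted genes in liver replicate 2 read at a median of 94.6% of their liver mean, against 93.2% in replicate 1 and 105% in replicate 3, so the liver genes were not lower there than in both other libraries. In the spleen libraries the liver-restricted genes read at medians of 0 to 0.023%. What put these genes into liver replicate 2 was not tested.

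Liver averaged 6009 ± 10333 TPM (SD, n = 3), a value set by replicate 2. Outside liver, the order of the tissues by summed level was skin, blood, stomach, and then kidney, testis, heart, ovary and lung. Skin averaged 279 ± 42.3 TPM (range 252 to 328), blood 145 ± 30.8 TPM (111 to 170) and stomach 93.2 ± 17.5 TPM (73.2 to 106; SD, n = 3 each). The libraries of these 3 tissues did not overlap. Kidney averaged 43.9 ± 9.15 TPM, testis 40.2 ± 6.71 TPM and heart 30.3 ± 6.56 TPM (SD, n = 3 each). Ovary had 22.5 ± 0.421 TPM (SD, n = 2) and lung 17.97 ± 3.83 TPM (SD, n = 3). Among these 5 tissues, the libraries of each tissue overlapped with those of its neighbour in the order. Against the spleen's 165307 ± 89212 TPM (SD, n = 3) all were low. By its median, skin was the highest other tissue for 30 of the 46 genes, stomach for 5, kidney for 4, blood for 2 and liver, testis and ovary for 1 each, and the remaining 2 genes were at a median of 0 in all 9. Only 3 genes, TRINITY_DN57371_c0_g1, TRINITY_DN78477_c0_g4 and TRINITY_DN11096_c0_g1, were below 1 TPM in every library outside the spleen.

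In skin and blood most of the genes, and nearly all of the most abundant, kept a similar small fraction of their spleen level. The median share of the spleen mean was 0.122%, 0.132% and 0.177% in skin replicates 1, 2 and 3 and 0.0975%, 0.0947% and 0.0669% in blood replicates 1, 2 and 3. In all other libraries except liver replicate 2 it was at most 0.0157%. Averaged over the libraries, the median share was 0.144% in skin and 0.0864% in blood. With a size factor per library in place of the TPM total, these averages were 0.114% and 0.0750%. Skin averaged 0.1% to 0.2% of the spleen mean for 33 of the 46 genes and for 24 of the 26 at 1000 TPM or more. It was above 0.2% for 11 genes and below 0.1% for 2. Blood averaged 0.05% to 0.15% for 38 of the 46 and for 24 of those 26, was above 0.15% for 3 and below 0.05% for 5. Across the 46 genes Spearman's rho with the spleen mean was 0.887 for skin and 0.954 for blood, against 0.393 for heart, 0.377 for testis, 0.325 for ovary, 0.159 for kidney, 0.137 for lung and 0.131 for stomach. These are descriptions over genes that share the same libraries. Low levels were also read for genes restricted to another tissue. The 234 skin-restricted genes read at medians of 0.140% to 0.194% of their skin mean in the spleen libraries and 0.0905% to 0.135% in the blood libraries. The 182 liver-restricted genes read at medians of 0 to 0.0031% in blood and skin. What part such low levels between tissues have in the skin and blood values was not tested.

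**Figure D4:**
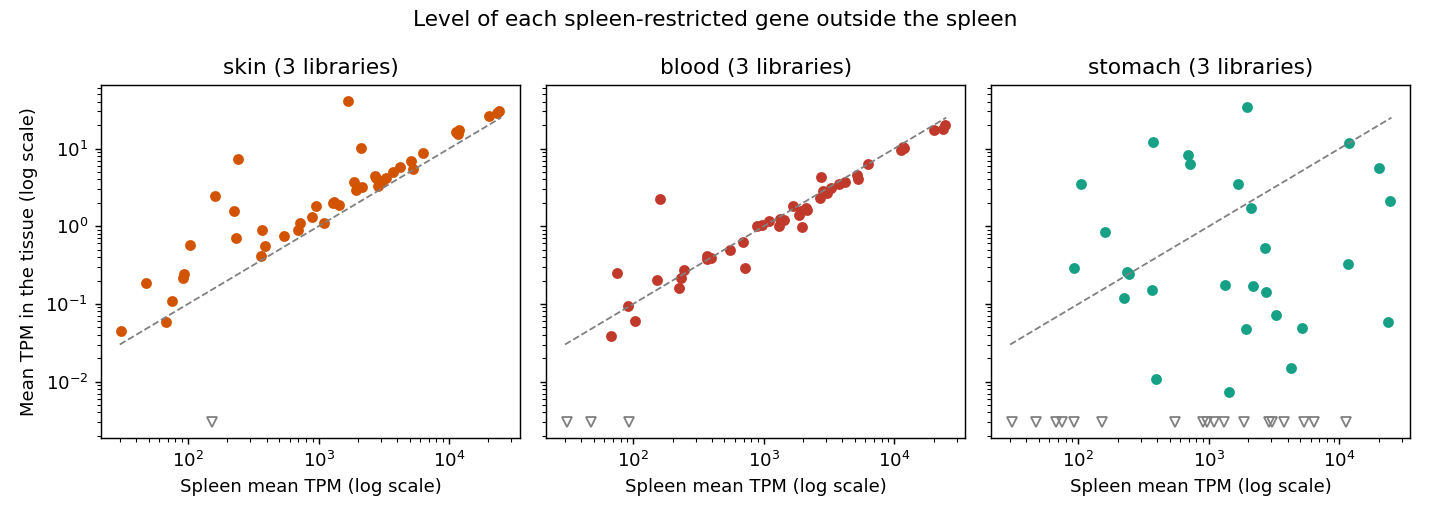
Mean TPM of each spleen-restricted gene in skin, blood and stomach (3 libraries each) against its spleen mean, both on log scales, with a dashed line at 0.1% of the spleen mean and open triangles for genes listed at 0. Most genes follow the line in skin and blood, with Spearman's rho of 0.887 and 0.954, and scatter away from it in stomach, with a rho of 0.131.

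Some genes left that pattern. TRINITY_DN15338_c0_g1 had 37.8, 41.7 and 43.4 TPM in skin replicates 1, 2 and 3, which is 2.46% of its spleen mean, and at most 9.71 TPM in the 17 libraries of the 6 remaining tissues. TRINITY_DN13891_c0_g1 had 8.73, 5.72 and 7.37 TPM in skin, against 0.169, 0.457 and 0.184 TPM in blood. Its level was not particular to skin, with 7.77, 6.63 and 1.53 TPM in testis and 1.91, 4.63 and 6.47 TPM in kidney. In stomach, TRINITY_DN143410_c0_g1 had 39.4, 47.5 and 16.7 TPM and made up 37.0% of the stomach sum of these genes. Its spleen libraries had 1251, 1347 and 3262 TPM and liver replicate 2 had 386 TPM. TRINITY_DN161630_c0_g1 had 7.86, 17.7 and 10.7 TPM in stomach, and TRINITY_DN48664_c0_g1 had 6.15, 3.99 and 9.08 TPM. For both, every stomach library was above every skin and blood library. The 47.5 TPM of stomach replicate 2 was the highest value of any of the 46 genes outside the spleen and liver replicate 2.

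The rule bounds these genes in the other tissues but does not order those tissues, so each of blood, liver and skin was compared with the mean of the other 8 tissues among the 26 libraries without spleen. The comparison used limma on log2(TPM + 1) over 50109 genes, with Benjamini-Hochberg adjustment, and called a gene at an adjusted p under 0.05 and a log2 difference of 1 or more. Of the 46 genes, 42 passed the filter of 1 TPM in at least 2 of the 26 libraries. A gene of this kind passes only where other tissues carry it, so the 42 are not the whole set. Of the 42, 3 would not have passed without the liver libraries and 2 would not have passed without the skin libraries. A gene could be counted in both groups. All 26 libraries share the estimate of the spread for each gene, so liver replicate 2 enters every standard error here. The shares of all genes given below are for these calls. No share of all genes was computed at an unadjusted p under 0.05, so counts at that threshold have no background. In blood, 0 of 42 were called higher, against 7.8% of all genes, and 1 was at an unadjusted p under 0.05. Lower in blood was 1 gene, against 18.7% of all genes, TRINITY_DN13891_c0_g1, by a log2 difference of -1.49 ± 0.30 (standard error; adjusted p = 0.000527 by limma with Benjamini-Hochberg adjustment). In skin, 12 were higher at an unadjusted p under 0.05, and 5 were called higher, against 6.21% of all genes. Of these 5, 1 would not have passed the filter without the skin libraries, which left 4 of the 40 that would. Lower in skin were 0, against 4.17%, with 0 at an unadjusted p under 0.05. In liver, 6 were called higher, against 6.42% of all genes, and 28 were higher at an unadjusted p under 0.05. Lower in liver were 0, against 7.48%, with 1 at an unadjusted p under 0.05. On log2(TPM + 1), a gene that averages below 1 on that scale over the other 8 tissues cannot be called lower. Many of these genes are low outside the spleen, so the counts of lower calls were partly set by their level. The skin count was 2 without any one skin library, against 5.25%, 5.32% and 5.75% of all genes without skin replicates 1, 2 and 3. The liver count was 31 without liver replicate 1, against 5.42% of all genes, and 32 without liver replicate 3, against 5.48%. With a pseudocount of 0.1 the higher calls were 4 in blood, against 8.3% of all genes, and 11 in skin, against 7.36%. The median log2 difference was 0.51 in the 42 genes and -0.36 in all genes for blood, 1.28 and -0.26 for skin, and 1.84 and -0.33 for liver.

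The largest difference in skin was that of TRINITY_DN15338_c0_g1, 4.07 ± 0.39 on the log2 scale (standard error; adjusted p = 9.14e-08 by limma with Benjamini-Hochberg adjustment), where every skin library was above every library of the other 8 tissues. TRINITY_DN23449_c0_g1 followed with 3.16 ± 1.08 (limma, adjusted p = 0.0493). It had 13.8, 15.4 and 20.1 TPM in skin, 11.4, 9.81 and 7.93 TPM in blood and 690 TPM in liver replicate 2, so its skin libraries overlapped with the others and its mean TPM in skin, 16.4, was below the 30.1 of the other 8 tissues. Its call was lost after rescaling (limma, adjusted p = 0.0524), with a replicate block (0.0541) and with no filter (0.0536). In liver the largest were TRINITY_DN143410_c0_g1, 3.23 ± 0.84 (limma, adjusted p = 0.00839), and TRINITY_DN74010_c0_g2, 3.14 ± 0.83 (limma, adjusted p = 0.00906). TRINITY_DN74010_c0_g2 had 6.56, 1006 and 6.43 TPM in liver and 15.3, 11.6 and 8.82 TPM in stomach. Both liver differences lost their call without liver replicate 2, with adjusted p of 0.203 for TRINITY_DN143410_c0_g1 and 0.0743 for TRINITY_DN74010_c0_g2.

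Leaving out liver replicate 2 changed the counts. Of 39 genes that then passed the filter, among 50012 tested, 26 were called higher in skin, against 6.18% of all genes, and 0 lower, against 4.15%. In blood 16 were called higher, against 7.74%, and 1 lower, against 18.8%. The 16 were those with the 16 highest spleen means, and all 16 were also called in skin. On log2(TPM + 1), a gene below 1 TPM in every blood library cannot reach a log2 difference of 1. Which genes were called higher therefore depended in part on their level, and the limit on lower calls given above held here too. Of the 26 called in skin, 2 would not have passed the filter without the skin libraries. Their place above the other tissues was thus partly set by the filter. Of the 37 genes that would have passed, 24 were called. Some of these reached 1 TPM only in skin and blood, so the filter still favoured these tissues. With no filter, a setting chosen after seeing the data, all 46 genes were tested. Called higher were then 26 in skin, against 5.8% of all genes, and 16 in blood, against 7.24%. In liver, with the filter kept, 1 of the 39 was called higher, against 6% of all genes, and 4 lower, against 5.47%. The gene called higher in liver was TRINITY_DN14521_c0_g1, by 1.97 ± 0.55 on the log2 scale (limma, adjusted p = 0.0185). TRINITY_DN23449_c0_g1 was 3.56 ± 0.20 higher in skin (limma, adjusted p = 3.65e-11) and 2.77 ± 0.20 higher in blood (limma, adjusted p = 2.52e-09). TRINITY_DN14451_c0_g1 had the largest lower difference in liver, -1.67 ± 0.27 (limma, adjusted p = 0.000217), where with liver replicate 2 it was 1.49 ± 1.09 (adjusted p = 0.360). The median log2 difference in liver was then -0.44 in the 39 genes and -0.31 in all genes. Liver replicate 2 is one of the libraries with which blood and skin were compared, and without it the liver group has 2 libraries. It also enters the estimate of the spread, which all tissues share. With liver replicate 2, TRINITY_DN23449_c0_g1 was 2.38 ± 1.08 higher in blood (limma, adjusted p = 0.0895). Without it the standard error in blood was 0.20, as given above, so the error changed more than the difference.

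The assembly groups genes that share sequence into components. The 46 genes lay in 44 components of 46150 in the table, and 36 of the 46 (78.3%) were the only gene of their component, against 76.7% of all genes. One component held 3 of them. TRINITY_DN19979_c0_g3 had 2986, 3900 and 8523 TPM in spleen replicates 1, 2 and 3, TRINITY_DN19979_c0_g2 had 1751, 1654 and 2892 TPM, and TRINITY_DN19979_c0_g1 had 161, 196 and 313 TPM. These 3 genes, picked out after their values were seen, differed outside the spleen. Their skin means were 0.133%, 0.478% and 0.701% of the spleen mean, in the same order, and liver replicate 2 was at 17.5%, 5.70% and 2.43%.

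A further 7 genes shared a component with a member and did not meet the rule. Against the mean of the other 9 tissues, 2 of the 7 were called higher in spleen, against 4.08% of the 50365 genes tested in all 29 libraries, and 1 of 7 without spleen replicate 1 or without replicate 3. TRINITY_DN78477_c0_g1 had 17.0, 56.2 and 39.2 TPM in spleen and no more than 0.200 TPM outside the spleen, and missed the minimum in replicate 1 alone. Its log2 difference was 5.05 ± 0.19 (standard error; adjusted p = 3.38e-14 by limma with Benjamini-Hochberg adjustment). It passed the filter only through the spleen libraries, the tissue tested, and its levels nearly met the rule. Its call therefore largely repeats the filter and the rule, and the count of 2 of 7 includes it. TRINITY_DN4367_c0_g1 had 181, 200 and 359 TPM in spleen and 132, 162 and 668 TPM in liver, so that liver replicate 3 was above the spleen libraries. Blood replicate 3, at 222 TPM, was above spleen replicates 1 and 2, and ovary replicate 1, at 199 TPM, was above spleen replicate 1. The log2 difference of TRINITY_DN4367_c0_g1 was 2.87 ± 0.83 (limma, adjusted p = 0.0172). The member of that component, TRINITY_DN4367_c0_g2, had 1514, 2118 and 4645 TPM in spleen and 0.106, 290 and 0.145 TPM in liver. The pair therefore differed outside the spleen, with the member low in liver replicates 1 and 3 and its neighbour not.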

How the data were processed

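Polyadenylated RNA was sequenced from 10 tissues in 29 libraries made with the NEBNext Ultra RNA kit, per the labels' protocols. The deposited values, in 1 table, are TPM as the authors' file headers name them, and every column sums to 1000000. Aligner, quantifier and assembler settings: not given in the sources used here. Without depth no count test was run. No pair of libraries shared equal values above 0 (0 genes).

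Members were counted by the rule on the values as deposited. Tests used limma 3.58.1 in R 4.3.3 on log2(TPM + 1) with a mean per tissue, intensity trend and Benjamini-Hochberg adjustment over genes reaching 1 TPM in 2 or more of the libraries fitted, and were tested on simulated data. Counts, ratios and figures came from matplotlib 3.10.9, scipy 1.17.1, numpy 2.4.6 and pandas 2.3.3 in Python 3.11.15. Named genes were at most 2 per direction: highest and lowest spleen mean, spleen ratio, share per spleen library, level in liver replicate 2, level in another tissue, distance to each limit, log2 difference among called genes, and spleen mean in a shared component. The members, lists and tests were chosen with earlier results of these data known. Alternatives were other limits, pseudocount 0.1, no filter, rescaling, a replicate block and leaving out each library. Counts of members by highest spleen library after rescaling, skin and blood shares after rescaling, the highest library with liver replicate 2 left out, and no filter with liver replicate 2 left out were chosen after seeing the data.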

Additional observations from a re-analysis of the deposited data

How the results depend on the processing

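The number of genes meeting the rule was 46 and stayed at 39 to 56 under the other limits, rescaling, and with each spleen library or liver replicate 2 left out. It was 8 when the highest library of each tissue replaced the median, and 44 when liver replicate 2 was also left out. The summed spleen level was 113857 to 193119 TPM with a spleen library left out. The median share in liver replicate 2 was 6.91% to 13.9%, with 13.9% without spleen replicate 3. With a pseudocount of 0.1, 4 genes were called higher in blood, against 8.3% of all genes, and 11 higher in skin, against 7.36%. Lower in blood were then 2, against 12230 of 50109 genes. Over the libraries left out, the calls were 0 to 16 higher in blood, 1 to 32 higher in liver and 2 to 26 higher in skin. The share of all genes called higher was 5.91% to 8.54% in blood, 5.42% to 6.95% in liver and 5.25% to 6.54% in skin. Lower in liver were 0 to 4, and neighbours called in spleen were 1 to 2. The higher calls in liver were 31 without liver replicate 1, 32 without replicate 3 and 1 without replicate 2. The higher calls in skin were 2 without any one skin library. With no filter and without liver replicate 2, a setting chosen after seeing the data, 16 were higher in blood, against 7.24% of all genes. In skin 26 were higher, against 5.8%. In liver 1 was higher, against 5.71%, and 4 were lower, against 2709 of 53113 genes. Neighbours called in spleen were 1 without spleen replicate 1 or 3. TRINITY_DN23449_c0_g1 lost its skin call with no filter (limma, adjusted p = 0.0536), after rescaling (0.0524), with a replicate block (0.0541) and in most leave-outs. Whether same-numbered libraries share an animal is not stated, and correlation between libraries cannot settle it. Testis and ovary libraries share replicate numbers, so a number cannot mark a single male or female animal across all tissues. The replicate block is therefore not a block by animal throughout. With tissue means removed, r was over 0.1 in 10 of 126 same-numbered pairs of different tissues. Mean r was 0.0158 in these pairs and -0.0078 in the other pairs. A replicate block gave 0 higher and 1 lower in blood, 6 higher in liver, 4 higher in skin and 2 neighbours. With the block, 7.84% of all genes were called higher in blood, 6.47% in liver and 6.26% in skin. Without liver replicate 2 the median log2 difference in liver was -0.44 in the 39 genes tested, against 1.84 in the 42 tested with it. In all genes it was -0.31 without liver replicate 2 and -0.33 with it. The 5 genes named with all libraries kept (2 in skin, 2 in liver, 1 in blood) had the same direction under every alternative run. The cause was not tested. Unknown depth limits every value near 0.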
